A study of Homo sapiens with 12 samples.

Results

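The comparison described here is the addition of palbociclib to BLU9931 in NCI-H520, an established cell line derived from a human squamous carcinoma of the lung. Its members are all genes of the 6 libraries of 2 treated groups, chosen by their sample titles, out of 12 libraries in the series. The BLU9931 group received BLU9931 alone at 1 µM, and the combination group received BLU9931 at 1 µM together with palbociclib at 1 µM. Both groups were treated for 72 h and both carry BLU9931, so the contrast is the effect of palbociclib in cells that also received BLU9931. Of 58174 genes in the table, 20612 had enough counts in the series to be tested. The other 6 libraries, 3 of control cells and 3 of cells given palbociclib alone at 1 µM, were used in a second comparison of palbociclib without BLU9931. What the control cells were given is not stated in the labels. Nor is it stated that replicate libraries stem from different cultures, and the p-values then measure only the spread between libraries, which may be technical.

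CDK4 and CDK6, the kinases that palbociclib blocks, act in G1. With a D-type cyclin they phosphorylate the retinoblastoma protein RB1, which otherwise holds E2F transcription factors inactive. Free E2F drives the genes of DNA replication, while the genes of mitosis are driven later by the B-MYB and FOXM1 factors together with the MuvB core, and the DREAM complex represses both sets in resting cells. BLU9931 is an irreversible inhibitor of the receptor tyrosine kinase FGFR4, whose ligand FGF19 acts with the coreceptor KLB and signals to growth through the RAS and ERK kinases.

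The BLU9931 libraries held 23632602, 29500438 and 25626864 counts and the combination libraries 21730722, 27630387 and 30114602 counts. Between replicates of these 2 groups the counts differed by more than sampling noise, with a chi-square per degree of freedom of 17.5 to 24.0, so no library was counted as a repeat of another. On the first principal component, which held 39.5% of the variance, the BLU9931 libraries lay between -46.2 and -41.6 and the combination libraries between 65.3 and 67.5. Control replicate 1 and palbociclib replicate 3 stood apart from their groups in a trend with gene GC content, at rank correlations of -0.67 and -0.74. Neither belongs to the 2 groups compared, but both enter the shared estimate of the spread and the comparison without BLU9931. In the groups compared the same correlation was 0.40 for combination replicate 3 and -0.24 for combination replicates 1 and 2. It lay between -0.10 and 0.05 for the BLU9931 libraries. Log2 changes correlated with GC content at -0.070 for combination against BLU9931 and 0.15 for palbociclib against control. For the difference between these 2 effects the rank correlation was -0.27. The squamous label was set against markers: SOX2 was present at 405 to 441 TPM (a level scaled by gene length) over the 6 libraries, while KRT17, DSG3 and PKP1 had 0 counts and TP63 and KRT14 reached at most 2 counts in any of them. Of the 22 squamous and basal markers in the list 5 had no count in these libraries and 14 had enough counts to be tested. These 14 include ITGA6 at 40.4 to 59.7 TPM, PERP at 67.3 to 96.5 TPM and PITX1 at 87.6 to 204.6 TPM. They also include KRT5 at only 0.093 to 0.35 TPM and KRT6A at 0.65 to 1.3 TPM. Of 16 neuroendocrine markers 10 could be tested, with CHGB at 336 to 691 TPM and UCHL1 at 393 to 696 TPM, and 3 had no count.

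Adding palbociclib to BLU9931 lowered the replication and mitosis genes of these cells broadly and raised smaller groups of genes. Of the genes tested, 5572 (27.0%) passed a Benjamini-Hochberg adjusted p under 0.05 in edgeR's quasi-likelihood F-test. Of these, 2751 (13.3%) rose and 2821 (13.7%) fell. These shares are the reference for the counts that rose or fell in each gene list below. The falls were the larger in size: 478 genes fell and 275 rose by at least 4-fold, and 140 fell and 76 rose by at least 8-fold. The median log2 change was -1.05 among genes that fell, 0.87 among genes that rose and 0.033 over all genes tested. Levels in the 3 libraries of each group did not overlap for 52.6% of the genes tested. Of 1260 long intergenic RNAs tested 193 rose and 86 fell, and of 14580 protein-coding genes 2089 rose and 2318 fell. For the long intergenic RNAs the share that rose was close to the 13.3% of all genes tested. Their share that fell was below the 13.7% of all genes tested. With only the 6 libraries of the comparison in the fit, 8074 genes passed, 3925 upward and 4149 downward, and without control replicate 1 and palbociclib replicate 3 the number was 8685. In bulk RNA, fewer cells of a kind and less RNA per cell cannot be told apart.

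**Figure D1:**
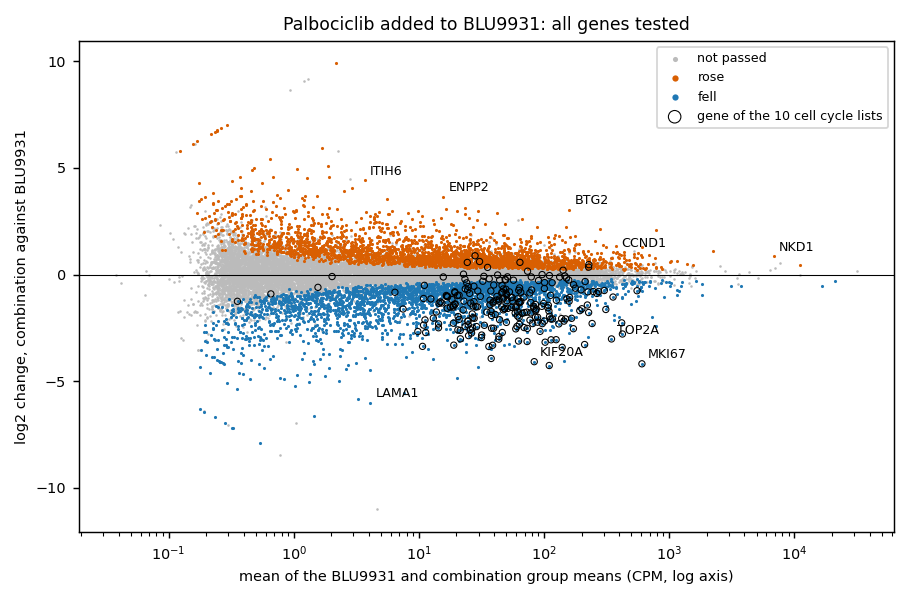
Log2 change of each of the 20612 genes tested, combination against BLU9931, plotted over the mean of the group means in CPM (log axis). Orange points rose and blue points fell at an adjusted p under 0.05, grey points did not pass, and black circles mark the 238 genes of the 10 cell cycle lists, which lie mostly below 0 with MKI67 at -4.18.

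The kinases that palbociclib inhibits and their cyclin were higher in the combination. CCND1, which encodes cyclin D1, the activating subunit of CDK4 and CDK6, measured 241, 244 and 258 CPM (counts scaled to library size) in the BLU9931 libraries and 508, 469 and 537 CPM in the combination libraries. The groups did not overlap, and CCND1 rose (log2 change 1.03 ± 0.077 SE, adjusted p = 2.89e-06). CDK6 read 263, 245 and 257 CPM with BLU9931 and 441, 455 and 409.9 CPM with both drugs, again without overlap (log2 change 0.77 ± 0.16 SE, adjusted p = 0.00448). CDK4 was lower in level, at 63.7, 47.2 and 57.1 CPM against 92.05, 70.1 and 99.4 CPM, and its replicates were wider apart (log2 change 0.64 ± 0.16 SE, adjusted p = 0.0101). Its adjusted p came to at most 0.0642 when BLU9931 replicate 2, combination replicate 1 or combination replicate 3 was left out, and the call was lost without any of these. RB1 itself, at 104, 101 and 104 CPM and 106, 106 and 92.4 CPM, overlapped between the groups (log2 change -0.024 ± 0.20 SE, adjusted p = 0.947). CCND3 did not pass (log2 change -0.43, adjusted p = 0.175), and CCND2 had too few counts to be tested.

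The cyclins of the next step moved apart. CCNE2, a partner of CDK2 at the start of S phase, fell from 23.2, 21.6 and 22.7 CPM to 5.30, 4.87 and 4.91 CPM (log2 change -2.16 ± 0.24 SE, adjusted p = 5.63e-05). CCNE1 was at 17.95, 18.9 and 16.9 CPM and 14.1, 17.4 and 17.1 CPM, with overlap between the groups and no call (log2 change -0.14 ± 0.12 SE, adjusted p = 0.42). CDK2 fell by 1.496 on the log2 scale, its activating phosphatase CDC25A by 1.63 and the CDK-binding subunit CKS1B by 1.35, with adjusted p from 2.56e-06 to 1.56e-05. Inhibitors of the kinases went both ways. CDKN2C, the p18 inhibitor of CDK4 and CDK6, fell from 11.6, 6.42 and 12.1 CPM to 0.770, 1.46 and 0.916 CPM (log2 change -3.24 ± 0.28 SE, adjusted p = 8.9e-06). CDKN1A, the p21 inhibitor, rose from 2.76, 2.61 and 2.51 CPM to 7.84, 7.15 and 9.13 CPM (log2 change 1.61 ± 0.27 SE, adjusted p = 0.000978). CDKN1B (p27) and CDKN2A gave log2 changes of -0.18 and -0.46 and did not pass. Over the 21 G1 regulators tested, 4 rose and 8 fell, with a median log2 change of -0.18.

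Of 18 E2F, DREAM and MMB factors tested 7 fell, 1 rose and 10 did not pass, with a median log2 change of -0.26. MYBL2, which encodes B-MYB, was at 287, 262 and 276 CPM in the BLU9931 libraries and 17.1, 14.3 and 19.1 CPM in the combination libraries (log2 change -4.03 ± 0.16 SE, adjusted p = 3.63e-08). The activator E2F1 went from 93.6, 90.6 and 93.4 CPM to 23.3, 25.8 and 30.3 CPM (log2 change -1.81 ± 0.23 SE, adjusted p = 0.00017). In both genes every combination library was far below every BLU9931 library. The activator E2F2 fell by 3.05, the repressors E2F7 and E2F8 by 3.47 and 3.84, FOXM1 by 2.72 and MYBL1 by 2.14 on the log2 scale. The MuvB subunits LIN9, LIN37, LIN52 and LIN54, the chromatin binding subunit RBBP4 and the repressor E2F4 did not pass, with log2 changes from -0.52 (LIN9) to 1.07 (LIN52). TFDP2, a dimer partner of E2F, rose (log2 change 0.80 ± 0.093 SE, adjusted p = 7.57e-05). The number that rose came to 3 without control replicate 1 and 2 without control replicate 3 or palbociclib replicate 3.

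**Figure D2:**
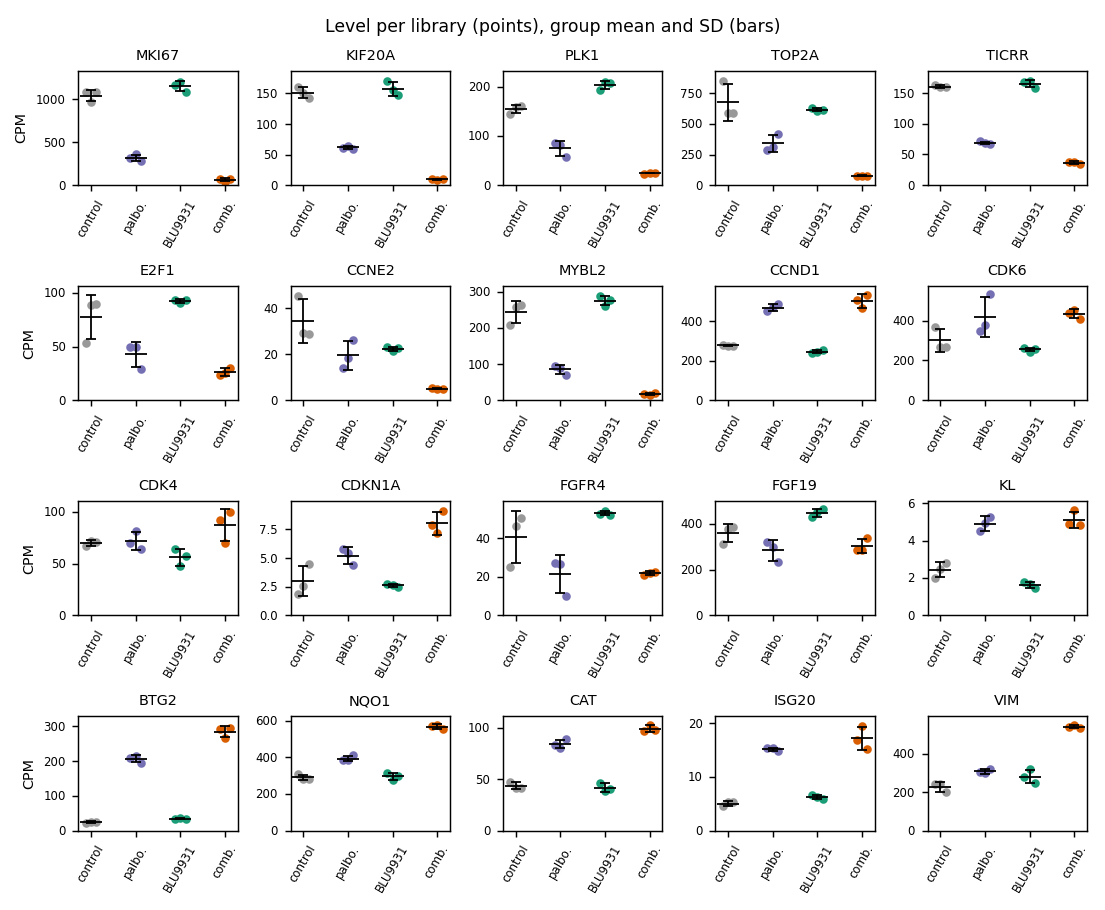
CPM of 20 genes in each of the 12 libraries (points), with the group mean and SD (bars), for control, palbociclib, BLU9931 and the combination, on axes that start at 0. MKI67, KIF20A, PLK1, TOP2A and TICRR are lowest in the 3 combination libraries, while CCND1, CDKN1A, NQO1 and VIM are higher there than with BLU9931 alone.

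DNA replication genes fell nearly throughout. The genes that load and fire origins, such as the MCM helicase, the CDC45 and GINS factors and TICRR, which couples CDK activity to origin firing, fell in 24 of 28 cases, with a median log2 change of -1.33. TICRR had 168, 169.5 and 159 CPM in the BLU9931 libraries and 38.02, 37.4 and 34.3 CPM in the combination libraries (log2 change -2.18 ± 0.088 SE, adjusted p = 3.63e-08). MCM10 was at 46.4, 42.97 and 42.4 CPM with BLU9931 and 6.03, 5.87 and 6.25 CPM with both drugs (log2 change -2.86 ± 0.12 SE, adjusted p = 4.93e-08). The spread within each group was small beside these differences and no library crossed over. CDC45 and GINS2 fell by 2.73 and 1.94 on the log2 scale. The exceptions were subunits of the origin recognition complex: ORC5 rose (log2 change 0.62 ± 0.15 SE, adjusted p = 0.00914), and ORC2, ORC3 and ORC4 did not pass, at log2 changes of 0.0028, -0.11 and 0.58.

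At the replication fork 26 of 29 genes fell and none rose at an adjusted p under 0.05 in edgeR's test, median -1.29. POLE2, a subunit of the leading strand polymerase, went from 17.1, 17.3 and 16.5 CPM to 2.45, 2.81 and 2.75 CPM (log2 change -2.67 ± 0.16 SE, adjusted p = 6.22e-07). PCNA, the sliding clamp, dropped from 122, 104 and 112 CPM to 33.6, 33.8 and 32.6 CPM (log2 change -1.76 ± 0.11 SE, adjusted p = 7.82e-07), and the ligase LIG1 fell by 2.11 on the log2 scale. RFC4 of the clamp loader held 139 ± 8.05 (SD, n = 3) CPM with BLU9931 and 128 ± 8.03 (SD, n = 3) CPM in the combination, which overlap (log2 change -0.11 ± 0.13 SE, adjusted p = 0.573). TIMELESS, which protects the fork, fell by 1.69, and CHTF18 did not pass at -0.83. Homologous recombination and Fanconi genes fell in 26 of 28 cases, median -1.52. EXO1, a nuclease of end resection and mismatch repair, was at 73.4, 78.1 and 79.6 CPM with BLU9931 and 11.2, 10.3 and 9.36 CPM with both drugs (log2 change -2.90 ± 0.14 SE, adjusted p = 9.7e-08). RAD54L and FANCD2 fell by 2.51 and 1.55, while PALB2 and FANCM did not pass.

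Promoter windows are shown for 3 of these genes because each belongs to the member with the smallest adjusted p in its list: TICRR for origin firing, POLE2 for the fork and EXO1 for recombination. They are RefSeq sequences on GRCh38.p14, from 250 bases before to 50 bases after the gene start, printed on the strand of the gene from 5′ to 3′. They lie at chr15:89575219-89575518 (plus strand), chr14:49688165-49688464 (minus strand) and chr1:241847954-241848253 (plus strand). Capitals mark matches on either strand to the E2F motif (TTCCCGC, its variant with the letters TTGGCGC, a further form TTCGCGC and a last form TTGCCGC), the CHR motif (TTTGAA) or the CCAAT box (CCAAT), and overlapping matches run together.
TICRR: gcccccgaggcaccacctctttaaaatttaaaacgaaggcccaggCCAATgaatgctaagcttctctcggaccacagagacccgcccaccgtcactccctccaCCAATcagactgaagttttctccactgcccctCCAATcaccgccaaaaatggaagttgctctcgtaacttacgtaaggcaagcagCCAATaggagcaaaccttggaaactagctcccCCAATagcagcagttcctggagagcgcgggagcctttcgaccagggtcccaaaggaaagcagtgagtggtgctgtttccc
POLE2: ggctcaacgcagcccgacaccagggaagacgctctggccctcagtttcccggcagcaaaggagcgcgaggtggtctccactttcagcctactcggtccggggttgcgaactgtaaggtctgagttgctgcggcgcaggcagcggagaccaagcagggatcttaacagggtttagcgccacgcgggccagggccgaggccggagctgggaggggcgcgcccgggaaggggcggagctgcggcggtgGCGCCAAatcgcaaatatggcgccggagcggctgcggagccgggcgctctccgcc
EXO1: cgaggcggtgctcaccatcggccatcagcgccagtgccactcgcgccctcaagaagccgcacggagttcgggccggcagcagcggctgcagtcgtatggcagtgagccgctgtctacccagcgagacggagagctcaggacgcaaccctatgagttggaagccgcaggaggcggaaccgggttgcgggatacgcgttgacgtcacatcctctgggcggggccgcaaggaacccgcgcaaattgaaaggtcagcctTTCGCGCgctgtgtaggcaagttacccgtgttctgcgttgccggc
The TICRR window held 5 CCAAT boxes and no match to the E2F letters. POLE2 and EXO1 each held 1 E2F match, beginning 5 bases before and 5 bases after the first base of the gene.

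Around replication the picture was less uniform. Of 22 genes that make deoxynucleotides, 14 fell, median -0.74. TYMS, thymidylate synthase, fell from 71.1, 67.5 and 73.4 CPM to 6.03, 7.68 and 7.59 CPM (log2 change -3.31 ± 0.13 SE, adjusted p = 2.87e-08), and the S phase subunit of ribonucleotide reductase RRM2 fell by 3.02 against 1.25 for RRM1. The purine synthesis genes ATIC and PAICS did not pass, with log2 changes of -0.16 and 0.35. Genes that restore chromatin behind the fork fell in 15 of 24 cases, among them the assembly factor CHAF1B, which fell by 2.35, the histone variant H2AFZ by 1.33 and the methyltransferase EZH2 by 1.55. In mismatch and excision repair 7 of 20 genes fell, and the number that fell came to 3 without BLU9931 replicate 1, combination replicate 1 or combination replicate 3 and 4 without BLU9931 replicate 3 or combination replicate 2. NEIL3, a glycosylase, had the largest change there at -3.51. Replication-dependent histone genes, whose mRNAs mostly lack a poly(A) tail, were low, and 20 of 47 could be tested: 7 rose and 1 fell. HIST1H3E, for example, was at 1.23, 1.53 and 0.966 CPM with BLU9931 and 7.25, 7.15 and 6.25 CPM in the combination (log2 change 2.46 ± 0.26 SE, adjusted p = 3.63e-05). These near-identical genes can share reads.

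Mitotic genes fell too, with the largest list medians among the spindle kinesins and the cytokinesis genes. All 15 spindle kinesins tested fell (median -2.24), as did all 16 genes of cytokinesis and the chromosomal passenger complex tested (median -2.24). Of 19 mitotic kinases and their partners 16 fell (median -1.51), of 25 genes of cyclins A and B, CDK1 and the anaphase-promoting complex 17 fell (median -1.78), of 38 centromere and kinetochore genes 31 fell (median -1.43), and of 20 chromosome structure genes 16 fell (median -1.32). None of these lists had a gene that rose at an adjusted p under 0.05 in edgeR's test. MKI67, the Ki-67 proliferation marker that coats mitotic chromosomes, measured 1161, 1203 and 1085 CPM in the BLU9931 libraries and 74.6, 41.6 and 74.1 CPM in the combination libraries (log2 change -4.18 ± 0.21 SE, adjusted p = 1.66e-07). KIF20A, a kinesin of cytokinesis, stood at 170.4, 156 and 148 CPM and 9.65, 8.18 and 10.2 CPM (log2 change -4.08 ± 0.12 SE, adjusted p = 7.8e-09). In both the combination libraries lay more than an order of magnitude below the others, and combination replicate 2 was the lowest of the 3.

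The kinase PLK1, which acts from mitotic entry to exit, went from 194, 209 and 208 CPM to 23.7, 24.6 and 25.2 CPM (log2 change -3.06 ± 0.14 SE, adjusted p = 1.05e-07). AURKB, the kinase of the passenger complex, was at 75.6, 71.6 and 66.2 CPM and then 4.08, 4.98 and 4.91 CPM (log2 change -3.93 ± 0.21 SE, adjusted p = 2.84e-07). TOP2A, which untangles sister chromatids, fell from 627, 607 and 616 CPM to 78.3, 78.5 and 72.3 CPM (log2 change -3.01 ± 0.17 SE, adjusted p = 4.27e-07). Its paralog TOP2B, which is not tied to the cell cycle, was at 194, 191 and 189.6 CPM and 270.5, 283 and 242 CPM, higher in each combination library but without a call (log2 change 0.47 ± 0.17 SE, adjusted p = 0.0623). PTTG1, the securin that guards sister chromatid cohesion, fell by 3.17, CCNB2 by 2.30, CCNA2 by 3.13 and the ubiquitin-conjugating enzyme UBE2C by 2.71 on the log2 scale. The core subunits ANAPC5 and CDC23 of the anaphase-promoting complex did not pass, at -0.062 and 0.21. At the kinetochore CENPA, the centromeric histone, fell by 3.36, SPC25 by 3.31 and CENPF by 2.78. The nuclear lamina gene LMNB1 fell by 1.88 and HMGB2 by 2.71, among 9 of 17 lamin and HMG genes that fell (14 without control replicate 1 and palbociclib replicate 3).

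**Figure D3:**
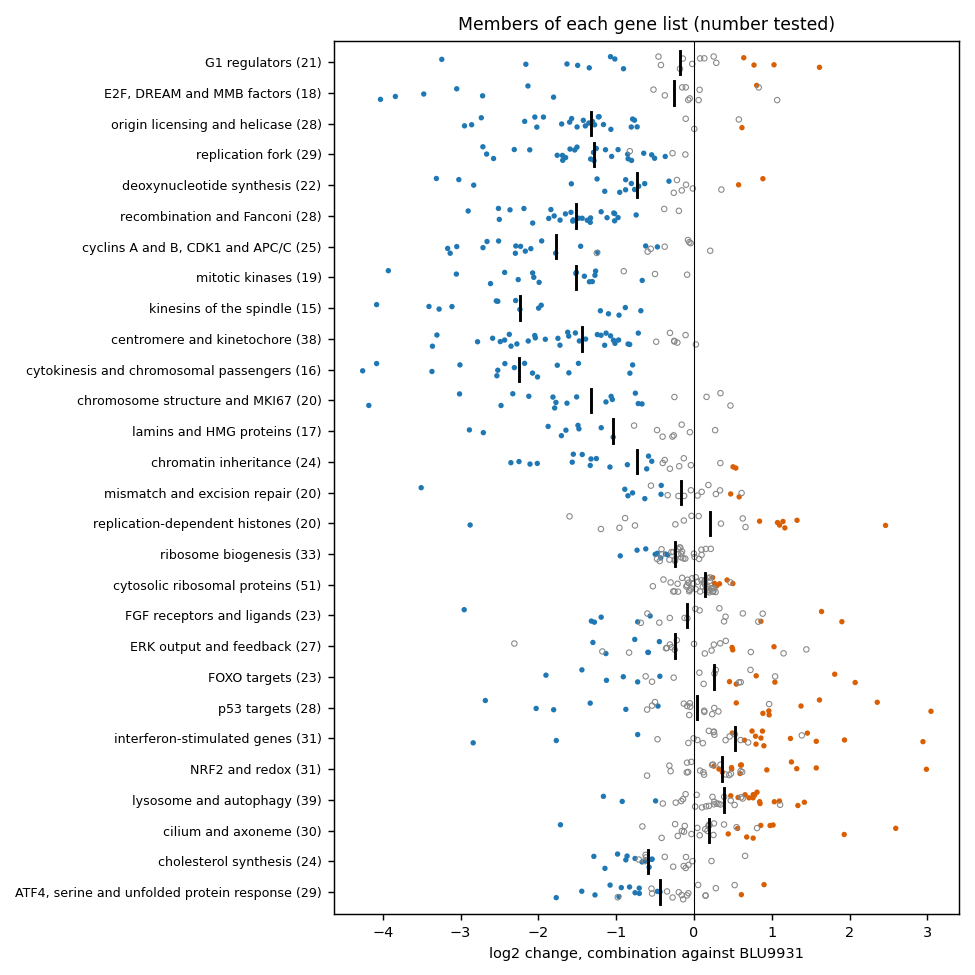
Log2 change, combination against BLU9931, of each tested member of 28 gene lists (number tested in brackets). Filled points passed an adjusted p under 0.05 (blue fell, orange rose), open points did not, and black bars are list medians, which reach -2.24 for the spindle kinesins and 0.53 for the interferon-stimulated genes.

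For mitosis the windows of PTTG1, PLK1 and KIF2C are shown, chosen in the same way from the cyclin, kinase and kinesin lists. KIF2C, a kinesin that depolymerises microtubules, was at 392, 393 and 365 CPM with BLU9931 and 40.4, 35.8 and 42.4 CPM with both drugs (log2 change -3.28 ± 0.093 SE, adjusted p = 7.8e-09). The windows lie at chr5:160421605-160421904, chr16:23678639-23678938 and chr1:44739587-44739886, all on the plus strand, with capitals as above.
PTTG1: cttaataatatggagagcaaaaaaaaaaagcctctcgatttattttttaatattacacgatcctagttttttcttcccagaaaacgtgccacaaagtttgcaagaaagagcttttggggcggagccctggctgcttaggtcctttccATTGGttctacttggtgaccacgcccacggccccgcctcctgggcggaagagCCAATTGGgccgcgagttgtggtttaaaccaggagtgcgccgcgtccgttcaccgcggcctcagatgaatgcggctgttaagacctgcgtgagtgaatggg
PLK1: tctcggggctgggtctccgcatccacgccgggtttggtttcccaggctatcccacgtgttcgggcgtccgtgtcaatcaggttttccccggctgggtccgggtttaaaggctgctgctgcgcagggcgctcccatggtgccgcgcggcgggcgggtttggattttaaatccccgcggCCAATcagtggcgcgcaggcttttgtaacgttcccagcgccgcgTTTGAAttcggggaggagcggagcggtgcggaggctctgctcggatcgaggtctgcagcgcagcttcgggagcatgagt
KIF2C: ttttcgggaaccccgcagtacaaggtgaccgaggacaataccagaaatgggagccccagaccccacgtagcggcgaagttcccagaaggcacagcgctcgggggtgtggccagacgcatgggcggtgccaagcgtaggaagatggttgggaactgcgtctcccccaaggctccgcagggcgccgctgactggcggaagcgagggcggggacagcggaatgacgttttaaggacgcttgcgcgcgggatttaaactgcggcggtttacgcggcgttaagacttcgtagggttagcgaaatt
The PLK1 window held 1 CHR match, beginning 29 bases before the gene start, and 1 CCAAT box. PTTG1 held 3 CCAAT boxes, and the KIF2C window had none of these letters.

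Promoter windows could be matched by symbol for 12782 of the genes tested, which is a description of letters and not of binding. At least 1 E2F match was found in 28.6% of 1924 windows of genes that fell, 12.7% of 1856 windows of genes that rose and 19.7% of all tested genes with a window. Among all 27305 promoters of the table the share was 13.1%. The replication lists held E2F matches in 14 of 23 windows (origins), 16 of 23 (fork) and 17 of 23 (recombination), but in only 3 of 19 for deoxynucleotide synthesis. Among mitotic lists the centromere list held them in 13 of 30 windows and the kinesins in 4 of 15. The CHR letters had a different distribution, with 9 of 15 windows of kinesins, 11 of 14 of the cytokinesis list and 13 of 30 of the centromere list, against 10.03% of tested genes, 15.4% of all promoters and 0 of 23 fork genes. CCAAT boxes were in 36.3% of tested genes and 39.4% of genes that fell, with a wide range between lists, from 11 of 14 cytokinesis and 11 of 15 kinesin windows to 4 of 26 windows of oxidative phosphorylation genes. The FOXO letters (TGTTTAC) were in 3.45% of windows of genes that rose, 6.49% of those that rose by at least 4-fold (10 of 154), 1.61% of those that fell, 2.41% of tested genes and 3.41% of all promoters.

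**Figure D4:**
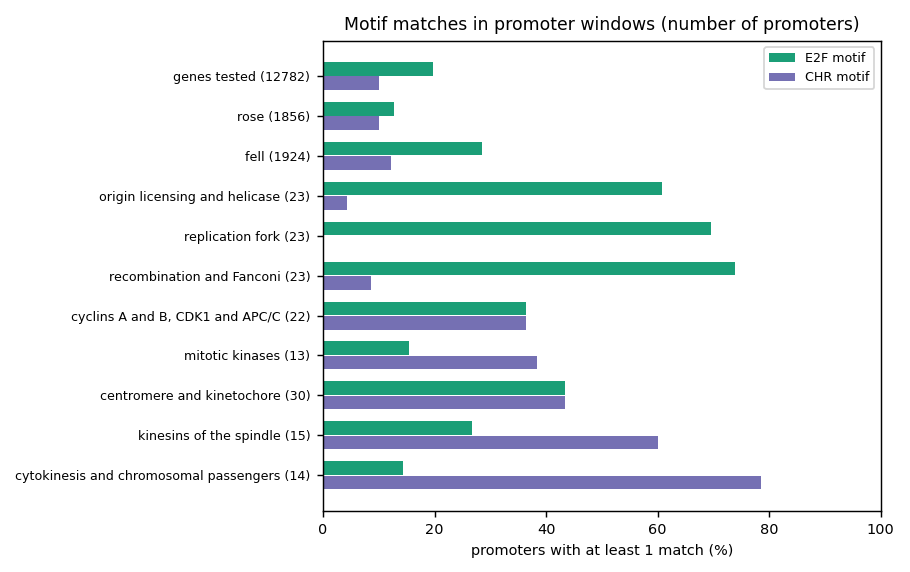
Percentage of 300-base promoter windows with at least 1 match to the E2F motif (green) or the CHR motif (purple), for all tested genes, genes that rose or fell and 8 cell cycle lists (number of windows in brackets). E2F matches are most frequent in the recombination list at 73.9% and CHR matches in the cytokinesis list at 78.6%.

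The 10 lists of replication and mitosis hold 238 genes, all of which were tested. Of these 199 fell and 3 rose (ORC5, RRM2B and DCTD), with 162 that fell by at least 2-fold, 72 by at least 4-fold and 18 by at least 8-fold. Their summed level was 18733, 18036 and 18513 TPM in the BLU9931 libraries and 7392, 7451 and 7234 TPM in the combination libraries. The median log2 change over the 238 genes was -1.42. The number that fell stayed between 189 and 202 when any 1 library was left out. RRM2B and DCTD lost their calls in some of these fits, with adjusted p of 0.0193 and 0.0335 with all libraries.

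The receptor targeted in both groups was itself lower in the combination. FGFR4 measured 52.6, 54.2 and 52.2 CPM in the BLU9931 libraries and 20.7, 22.00 and 22.7 CPM in the combination libraries, a clear gap between the groups (log2 change -1.28 ± 0.34 SE, adjusted p = 0.0152). The call was lost without combination replicate 1 or without combination replicate 2, at an adjusted p of at most 0.0574. Its ligand FGF19 fell from 429, 449.9 and 462 CPM to 283, 284 and 339 CPM (log2 change -0.56 ± 0.13 SE, adjusted p = 0.00741). FGFR1, at 865 TPM on average with BLU9931 against 46.1 TPM for FGFR4, showed 1056, 1071 and 989.9 CPM and 935, 1006 and 996 CPM, which overlap (log2 change -0.086 ± 0.19 SE, adjusted p = 0.79). FGFR2, FGFR3 and the coreceptor KLB did not pass, at log2 changes of -0.68, 0.071 and 0.33. The related coreceptor KL rose from a low level of 1.78, 1.66 and 1.47 CPM to 4.89, 5.62 and 4.81 CPM (log2 change 1.64 ± 0.17 SE, adjusted p = 3.8e-05). Among ligands FGF4 fell by 2.95 and FGF2 by 1.19. In all 3 rose and 6 fell of 23 genes of the family tested, beside 13.3% and 13.7% of all genes tested.

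Genes that report ERK signalling did not move as a block. DUSP6, an ERK phosphatase induced by the pathway, was at 107, 88.05 and 79.3 CPM and 119, 123 and 122 CPM (log2 change 0.41 ± 0.19 SE, adjusted p = 0.142), and SPRY4 at 92.1, 94.97 and 97.6 CPM and 114, 107 and 119 CPM (log2 change 0.25 ± 0.12 SE, adjusted p = 0.139). In both every combination library was above every BLU9931 library, but neither passed. ETV4, an ETS factor downstream of FGF signals, fell from 26.2, 25.7 and 28.5 CPM to 10.8, 10.2 and 11.7 CPM (log2 change -1.30 ± 0.24 SE, adjusted p = 0.00189), and SPRY2 fell by 0.59. ETV5 did not pass, at a log2 change of -0.0002. Beside 13.3% and 13.7% of all genes tested, 3 of 27 ERK genes tested rose and 6 fell. The number that fell came to 3 without BLU9931 replicate 1, 2 or 3 or combination replicate 1 or 2, and the number that rose to 1 without BLU9931 replicate 1 or combination replicate 1 or 2. MYC was too variable for a comparison, at 24.2, 4.21 and 43.6 CPM with BLU9931 and 50.6, 39.7 and 18.98 CPM with both drugs (log2 change 0.60 ± 0.94 SE, adjusted p = 0.684).

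Other receptor tyrosine kinases were mostly called downward, with 9 that fell and 5 that rose of 27 tested. The number that rose came to 1 without BLU9931 replicate 1, BLU9931 replicate 3 or combination replicate 2, 2 without combination replicate 3 and 3 without combination replicate 1. KIT, the stem cell factor receptor, fell from 66.5, 74.7 and 73.5 CPM to 17.4, 15.3 and 16.4 CPM (log2 change -2.13 ± 0.13 SE, adjusted p = 7.26e-07). EGFR fell from 11.2, 13.98 and 12.02 CPM to 1.27, 2.06 and 2.09 CPM (log2 change -2.77 ± 0.20 SE, adjusted p = 2.62e-06), and IGF1R and ERBB3 fell by 3.14 and 1.44. No combination library reached the level of a BLU9931 library for any of these receptors. On the ligand side AREG, an EGFR ligand, rose by 2.07 to 4.03, 4.34 and 4.32 CPM, and IGF1 rose by 2.05 to 20.7, 23.00 and 25.9 CPM. The binding protein genes IGFBP4 and IGFBP2 fell by 2.261 and 1.25, and in this ligand list 4 rose and 4 fell of 18.

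Of 24 antiproliferative and KLF genes tested 6 rose and 4 fell, with a median log2 change of -0.074 and BTG3 and KLF6 at -0.85 and -0.68. In this list BTG2 had the largest change. This member of the BTG family of growth suppressors was at 34.5 ± 0.836 CPM (SD, n = 3) with BLU9931 and 292, 267 and 295 CPM in the combination (log2 change 3.05 ± 0.10 SE, adjusted p = 1.83e-08). TP53INP1, a stress response gene, rose from 16.8, 16.4 and 14.4 CPM to 85.9, 80.5 and 77.03 CPM (log2 change 2.35 ± 0.22 SE, adjusted p = 1.8e-05). The groups were far apart and narrow in both. SESN3, a FOXO target, rose by 1.81 and TXNIP by 0.80, while the FOXO targets CITED2 and TRIB2 fell by 0.91 and 0.72. Of 23 FOXO targets 6 rose and 6 fell, and of 28 p53 targets 8 rose and 6 fell, the 8 coming to 5 without BLU9931 replicate 1 or 2 or combination replicate 1 or 2. The p53 targets that fell include the repair genes POLH and DDB2, at -1.33 and -0.88. In the MYC network the antagonist MXD4 rose by 1.57 and MYCL by 1.13, and MXD3, which peaks in S phase, fell by 1.42.

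Of 26 BCL2 family and caspase genes 4 rose and 3 fell, a share close to the 27.0% called among all genes tested. BCL2, an inhibitor of apoptosis, fell from 4.63, 6.21 and 4.68 CPM to 1.09, 0.675 and 0.458 CPM (log2 change -2.83 ± 0.30 SE, adjusted p = 4.15e-05). BCL2L1, which encodes BCL-XL, rose from 178, 167 and 176 CPM to 265, 279 and 304 CPM (log2 change 0.70 ± 0.13 SE, adjusted p = 0.0025). The groups did not overlap in either gene. CASP8 rose by 1.04 and PMAIP1 (NOXA) fell by 2.03, and MCL1 did not pass at 0.34. The 4 that rose came to 7 without palbociclib replicate 3 and to 2 without any of control replicates 1 to 3, BLU9931 replicates 1 to 3 or combination replicates 1 to 3.

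Metabolic genes changed in part. Glycolysis and hypoxia genes fell in 8 and rose in 6 of 34 cases, beside 13.7% and 13.3% of all genes tested. The 6 came to 2 or 3 without BLU9931 replicate 1, 2 or 3 or combination replicate 2 or 3. LDHA, lactate dehydrogenase, fell from 478, 513 and 717 CPM to 167, 122 and 170.1 CPM (log2 change -1.89 ± 0.20 SE, adjusted p = 3.92e-05). PFKP, a phosphofructokinase, fell by 1.91, ENO1 by 0.73 and GAPDH by 0.52, while TPI1 and ALDOA did not pass at -0.30 and -0.41. Cholesterol synthesis genes fell in 11 of 24 cases with none called upward, median -0.60. Among them FDPS, farnesyl diphosphate synthase, fell from 119, 108 and 108 CPM to 49.8, 47.2 and 54.5 CPM (log2 change -1.15 ± 0.10 SE, adjusted p = 8.77e-06), and FDFT1, squalene synthase, fell by 0.63. By contrast the sterol exporters ABCA1 and ABCG1 rose. ABCA1 was at 1.49, 1.39 and 0.773 CPM and then 7.61, 8.28 and 8.41 CPM (log2 change 2.73 ± 0.28 SE, adjusted p = 3.24e-05), and ABCG1 rose by 1.87. Of 35 lipid handling genes 5 rose and 9 fell, beside 13.3% and 13.7% of all genes tested, with LPL, lipoprotein lipase, at -3.96.

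Amino acid and stress response genes linked to ATF4 fell in 12 of 29 cases, median -0.44. PHGDH, the first enzyme of serine synthesis, fell from 404, 388 and 382 CPM to 139.9, 139 and 153 CPM (log2 change -1.44 ± 0.13 SE, adjusted p = 1.52e-05), and the asparagine synthetase ASNS fell by 0.83. Ribosome biogenesis genes fell in 8 of 33 cases, with NOP56 at -0.73 and DKC1 at -0.62. That count came to 5 without BLU9931 replicate 3 and 17 without control replicate 1 and palbociclib replicate 3. Heat shock and chaperone genes fell in 7 of 24 cases, among them HSPA1A and HSPA1B at -1.02 and -1.19, a near-identical pair that can share reads. The 7 came to 4 without BLU9931 replicate 1 or combination replicate 1, and to 15 without control replicate 1 and palbociclib replicate 3. Cytosolic ribosomal protein genes moved little, with 6 that rose of 51, beside 13.3% of all genes tested, and log2 changes from -0.53 to 0.50. The 6 came to 2 or 3 when any 1 library of these groups was left out. Of 35 genes of oxidative phosphorylation 5 rose and 4 fell, beside 13.3% and 13.7% of all genes tested. Their log2 changes lay between -0.60 and 0.60. With 1 library left out, 3 to 5 of them rose and 1 to 6 fell.

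Redox and lysosomal genes rose more often than they fell. NRF2 and redox genes rose in 13 of 31 cases and none fell at an adjusted p under 0.05 in edgeR's test, median 0.36, and 8 rose without BLU9931 replicate 1. NQO1, a quinone reductase used as a readout of NRF2, measured 314, 278 and 299 CPM with BLU9931 and 572, 578 and 554 CPM with both drugs (log2 change 0.94 ± 0.078 SE, adjusted p = 6.39e-06). CAT, catalase, rose from 46.6, 38.2 and 40.2 CPM to 96.99, 103 and 97.9 CPM (log2 change 1.25 ± 0.11 SE, adjusted p = 9.08e-06). Both groups were tight and separate in each gene. AKR1C1 rose by 0.59 and AKR1B10 by 2.99, while NFE2L2, which encodes NRF2, and its inhibitor KEAP1 did not pass at -0.32 and -0.30. AKR1C1 and AKR1C2 are close paralogs that can share reads. Lysosome and autophagy genes rose in 14 and fell in 3 of 39 cases, median 0.39. The neuraminidase NEU1 rose by 1.42, the autophagy gene WIPI1 by 1.10 and NPC2, which binds cholesterol in the lysosome, by 0.71. GUSB, beta-glucuronidase, fell by 1.16.

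Interferon-stimulated genes rose in 13 of 31 cases and fell in 3, median 0.53. EPSTI1 was at 1.06, 1.15 and 1.08 CPM with BLU9931 and 9.15, 7.71 and 8.61 CPM in the combination (log2 change 2.94 ± 0.21 SE, adjusted p = 1.93e-06). ISG20, an exonuclease, rose from 6.62, 6.28 and 5.91 CPM to 16.8, 19.6 and 15.3 CPM (log2 change 1.46 ± 0.14 SE, adjusted p = 1.43e-05). The partner genes PARP9 and DTX3L rose by 1.24 and 0.88, and IRF9 did not pass at 0.043. OAS3 and HERC5 went the other way, at -1.77 and -2.84. Antigen presentation genes did not follow: of 23 tested none rose at an adjusted p under 0.05 in edgeR's test, and the peptide transporter TAP2 fell by 0.76. Of 32 secreted inflammatory factors only 7 had enough counts to be tested, among which CCL2 fell by 0.67.

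Genes of cell identity changed in part. SOX2 was at 577, 556 and 573 CPM and 553, 549 and 592 CPM, overlapping between the groups (log2 change -0.0098 ± 0.071 SE, adjusted p = 0.939). KRT15, a basal keratin, rose to 15.2, 11.9 and 13.97 CPM from 4.67, 4.85 and 5.06 CPM (log2 change 1.49 ± 0.19 SE, adjusted p = 0.000154), and ELF3, an epithelial transcription factor, rose by 0.89. VIM, vimentin, rose from 277, 318 and 247 CPM to 536, 549 and 535 CPM (log2 change 0.94 ± 0.11 SE, adjusted p = 6.95e-05), and the matrix protease MMP2 by 1.74, while the mesenchymal genes CDH11 and TWIST1 fell by 2.23 and 1.06. CDH2 and EPCAM did not pass. Of 23 mesenchymal genes 6 rose and 6 fell. The neuroendocrine list also split: CHGB, a granin, rose by 0.90, and NCAM1 fell by 2.37. Fibroblast markers summed to 7.65 to 8.37 TPM with BLU9931 and 2.35 to 4.04 TPM in the combination, with 2 of 5 tested that fell and COL3A1, DCN and LUM at or near 0. Leukocyte markers summed to 4.45 to 5.33 TPM and 9.06 to 9.94 TPM, with 3 of 6 tested that rose and PTPRC, CD3D and CD3E at or near 0. The part of other cells in any result was not tested.

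The basement membrane collagens moved in opposite directions by pair. COL4A1 and COL4A2, which share a promoter region, fell by 2.34 and 3.12. COL4A5 and COL4A6, the pair on the X chromosome, rose by 1.40 and 1.17. COL4A2 was at 36.7, 40.1 and 36.99 CPM and 4.31, 3.95 and 4.81 CPM, and COL4A5 at 89.4, 97.4 and 102 CPM and 246, 282 and 238 CPM, with no overlap in either. Among 34 matrix and integrin genes 6 rose and 7 fell, beside 13.3% and 13.7% of all genes tested. In this list 10 rose and 12 fell without control replicate 1 and palbociclib replicate 3. In the WNT pathway the feedback inhibitor NKD1 rose from 4821, 5025 and 4735 CPM to 8520.3, 8819.5 and 9214 CPM (log2 change 0.86 ± 0.082 SE, adjusted p = 1.69e-05), CTNNB1 rose by 0.48 and AXIN2 did not pass at 0.25. Of 37 WNT genes 8 rose and 7 fell, beside 13.3% and 13.7% of all genes tested. NOTCH2 fell from 314, 334 and 313 CPM to 153, 162 and 169 CPM (log2 change -0.99 ± 0.09 SE, adjusted p = 1.21e-05), JAG1 fell by 0.68 and DLL1 rose by 1.20. In that pathway 3 rose and 7 fell of 23, the 7 coming to 4 without BLU9931 replicate 1 or combination replicate 1, 3 without combination replicate 2 and 13 without control replicate 1 and palbociclib replicate 3. Cilium and axoneme genes rose in 9 of 30 cases, with DNAH9 at 1.02 and CFAP70 at 1.93, and the 9 came to 4 without BLU9931 replicate 2 and 5 without combination replicate 1 or 2.

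The largest changes were taken among protein-coding genes of at least 5 CPM whose groups did not overlap. Some of these genes were members of the lists above, such as LAMA1 and IQGAP3, and some were not. LAMA1, a laminin chain, fell from 7.34, 8.66 and 8.16 CPM to 0, 0.0711 and 0.262 CPM (log2 change -6.00 ± 0.46 SE, adjusted p = 3.94e-06). PIF1, a DNA helicase, fell from 54.4, 64.5 and 51.3 CPM to 2.67, 2.81 and 3.04 CPM (log2 change -4.32 ± 0.17 SE, adjusted p = 3.5e-08), and IQGAP3, a scaffold of proliferating cells, from 201, 221 and 207 CPM to 10.6, 9.42 and 12.8 CPM. C1QL1, NEURL1B and the urokinase receptor gene PLAUR fell by 5.82, 4.86 and 4.16. With 1 combination library at 0, the size fitted for LAMA1 depends on the prior count. Upward, ITIH6 went from 0.340, 0.475 and 0.155 CPM to 6.44, 7.04 and 7.76 CPM (log2 change 4.42 ± 0.39 SE, adjusted p = 9.72e-06) and ENPP2, which makes lysophosphatidic acid, from 2.12, 2.85 and 1.93 CPM to 28.6, 29.9 and 28.3 CPM (log2 change 3.64 ± 0.22 SE, adjusted p = 6.23e-07). The groups are separate in all of these genes because the selection required it. ADIPOQ, RHBDL2, SMPX, SLC9A4, CEACAM1 and KRT20 rose by between 2.96 (KRT20) and 4.06 (ADIPOQ).

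The same drug was also given without BLU9931, and the 2 effects were compared. Palbociclib against control used other libraries than the contrast above and called 4236 genes (20.6%), of which 2065 rose (10%) and 2171 fell (10.5%). Of the genes that fell with palbociclib on top of BLU9931, 1513 (53.6%) also fell without it, which is 69.7% of the falls there, and 93.9% had the same sign. Of the genes that rose, 1303 (47.4%) also rose, which is 63.1% of the rises there, and 91.3% had the same sign. The number of genes that fell by at least 4-fold was 478 with BLU9931 and 71 without, and the number that rose by as much was 275 and 286. The test of the difference between the 2 effects called 328 genes (1.59%), 58 more positive (0.281%) and 270 more negative (1.31%) with BLU9931, so that 17.7% were positive. Without control replicate 1 and palbociclib replicate 3 it called 2117 genes with 46.3% positive, and with a GC correction 1719 with 39.0% positive. Of the 270, 245 fell in the combination contrast and 167 fell in both, with median log2 changes of -2.29 with BLU9931 and -0.81 without.

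Replication and mitosis genes were frequent among these differences. Of the 238 genes, 67 had a more negative effect with BLU9931 at an adjusted p under 0.05 and none a more positive one in edgeR's test, and 200 had the lower estimate with BLU9931. Their median log2 change was -1.42 with BLU9931 and -0.82 without. The number with a called difference was 9 of 15 kinesins, 10 of 16 cytokinesis genes, 10 of 25 cyclin and anaphase genes, 7 of 19 kinases, 7 of 20 chromosome structure genes, 7 of 38 centromere genes, 7 of 29 fork genes, 6 of 28 recombination genes, 4 of 28 origin genes and 2 of 22 deoxynucleotide genes. For MKI67 the effect without BLU9931 was -1.72, from 1079, 964 and 1082 CPM in control libraries to 311, 358 and 279 CPM with palbociclib, against -4.18 with it (difference -2.46 ± 0.26 SE, adjusted p = 0.000739). For KIF20A the effects were -1.29 and -4.08 (difference -2.79 ± 0.15 SE, adjusted p = 8.91e-06). In both genes every combination library was below every library given palbociclib alone. Over the 238 genes the number with a more negative effect was 47 to 88 with 1 library left out, the highest without palbociclib replicate 3, and 137 without control replicate 1 and palbociclib replicate 3.

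For some other genes, BTG2, CCND1 and FGFR4 among them, the 2 effects were not told apart. BTG2 rose by 3.10 without BLU9931 and 3.05 with it, a difference of -0.052 ± 0.14 SE (adjusted p = 0.901). CCND1 rose by 0.76 and 1.03, a difference of 0.27 ± 0.11 SE (adjusted p = 0.275). Neither difference passed, which does not show that the effects are alike. Among redox genes 4 of 31 had a called difference, each more positive with BLU9931, beside 0.281% of all genes tested. AKR1C1, among these, fell without BLU9931, at -0.31, and rose with it, at 0.59 (difference 0.90 ± 0.09 SE, adjusted p = 0.000413). NQO1 was raised in both, by 0.44 and 0.94. For FGFR4 the effects were -0.93 and -1.28, with a difference that did not pass (adjusted p = 0.792).

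**Figure D5:**
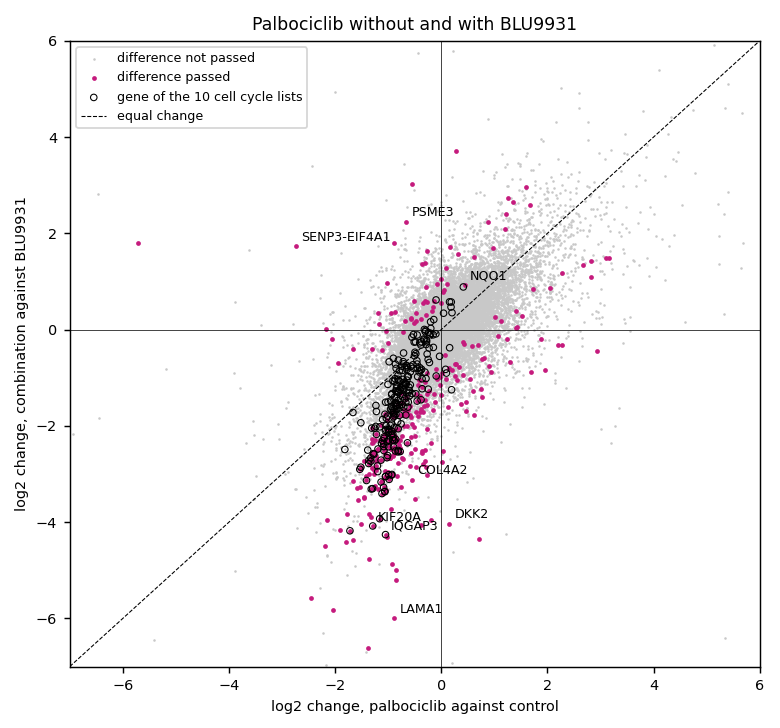
Log2 change of each gene with palbociclib against control (x axis) and with the combination against BLU9931 (y axis), with the dashed line at equal change. Pink points passed the test of the difference, black circles are the 238 replication and mitosis genes, which lie mostly below the line, and 29 genes fall outside the axes.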

How the data were processed

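RNA from 12 libraries of NCI-H520 cells was sequenced, 3 each for control, BLU9931, palbociclib and the combination. The deposited table holds whole-number read counts, TPM and FPKM per gene, per the file headers. The TPM values were made by the authors and sum to 999907 to 999944 per library, and the 12 FPKM columns were not used. Per the submitters' processing notes, the tools include HISAT2 2.0, StringTie 1.3.3b, Trimmomatic 0.36 and bedtools 2.26.0, with no role stated. The notes give a mouse build, whereas the gene IDs are human: 57836 of 58174 IDs are in GENCODE 29 (GRCh38), 56044 with the same start and end. How reads were counted, and whether by strand, is not given in the sources used here, so overlapping, antisense, read-through and near-identical genes are uncertain.

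Counts of all 12 libraries (21730722 to 35786607 each) entered one edgeR 4.0.16 model (R 4.3.3) with 4 groups, TMM scaling, the filterByExpr filter and robust quasi-likelihood F-tests with Benjamini-Hochberg adjustment over all 20612 genes tested. The common dispersion was 0.0518 with 8 residual degrees of freedom. CPM are scaled to TMM library sizes, and TPM are the deposited values. Tested on simulated data for combination against BLU9931 (20122 genes), the test recovered 60% of 100 genes changed 2-fold and 100% of 100 changed 4-fold, with 5.33% false calls. The simulation gave every gene the same dispersion and had no GC trend or outlying library. These rates may therefore not hold for the real libraries. Promoters were matched by symbol to RefSeq (GRCh38.p14).

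Alternatives were other scalings, no filter, DESeq2 1.42.0, limma 3.58.1 on log2(TPM + 1), fewer libraries, a GC offset and a replicate block. Same-numbered BLU9931 and combination libraries did not deviate together, so the main model has no block.

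The members and the 52 gene lists were chosen with earlier results of these data known. Genes are named by a rule: a panel, the 10 largest rises and falls among protein-coding genes of at least 5 CPM whose groups do not overlap, up to 4 members of each list in the commoner direction, 2 in the other and 2 that did not pass, and the 6 largest differences each way between the palbociclib effects with and without BLU9931. FOXM1, MYBL1, LIN9, LIN37, LIN52, LIN54, FGFR2, FGFR3, KLB, CDKN1B, NFE2L2, KEAP1, ORC4 and the markers named to check the squamous, fibroblast and leukocyte labels fall outside it and were chosen after their values were seen.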

Additional observations from a re-analysis of the deposited data

Results flagged for a closer look

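The palbociclib effect differed with and without BLU9931, by the interaction test of edgeR's model with Benjamini-Hochberg adjustment, for 328 genes. Genes at both ends of that test are given here as values. LAMA1, a laminin chain, had a log2 difference of -5.11 (adjusted p = 0.000932), DKK2, a WNT antagonist, -4.18 (adjusted p = 7.3e-05), PIF1 -3.30 (adjusted p = 2.98e-05) and IQGAP3 -3.21 (adjusted p = 4.2e-05). PIF1 was at 37.2, 46.0 and 44.3 CPM in control libraries and 23.3, 22.2 and 17.4 CPM with palbociclib alone, and at 2.67, 2.81 and 3.04 CPM in the combination. The calls of PIF1, IQGAP3 and DKK2 held under every alternative run, and that of LAMA1 under all but limma on TPM. NEURL1B had a difference of -3.93 and C1QL1 of -3.78, and both lost the call in several alternatives, with an adjusted p of up to 0.0668 and 0.105 with 1 library left out.

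Upward, SENP3-EIF4A1 had a difference of 4.47 and PSME3 of 2.91, and both lost the call when several single libraries were left out, at an adjusted p of up to 0.109 and 0.108. SENP3-EIF4A1 is a read-through of neighbouring genes whose reads cannot be told apart from theirs here, and its control libraries spread over 144, 117 and 39.6 CPM. ZNF589 had a difference of 2.19, C11orf57 of 1.97, ZNF678 of 1.89 and SMOC1 of 1.87. C11orf57 and SMOC1 lost the call with most single libraries left out, at an adjusted p of up to 0.119, while ZNF678 lost it only under limma on TPM and ZNF589 only there and with the replicate block.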

How the results depend on the processing

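For combination against BLU9931 the main count of 5572 genes became 8685 without control replicate 1 and palbociclib replicate 3 and 8463 with a GC offset, and lay between 4120 and 6836 with 1 library left out. The other alternatives stayed within 1.5 times, 4688 with the replicate block and 7966 with the block and the GC offset among them. Under limma on TPM, 14 of the main calls had the other sign. For palbociclib against control 4236 genes became 1775 with only its own libraries in the fit, 7143 with the GC offset and 6672 with the replicate block and GC offset, with 2985 to 5689 when 1 library was left out and 3231 with the replicate block. The difference between the effects moved most: 328 genes became 845 with DESeq2, 2117 without control replicate 1 and palbociclib replicate 3, 1719 with the GC offset, 142 with the replicate block and 1285 with the block and the GC offset, and 148 (without BLU9931 replicate 1) to 986 (without palbociclib replicate 3) with 1 library left out. Leaving out control replicate 1 gave 337, and each of the other libraries gave 164 to 213. The cause was not tested. Same-numbered BLU9931 and combination libraries correlated at -0.035, -0.017 and -0.053 in their deviations, and the numbers were not treated as pairs. Such low correlations cannot show whether the numbers mark shared cultures or runs, which the labels do not state. The 379 results of the genes named were each set against up to 22 alternatives. Of these comparisons 7849 kept the status of the main fit, 256 lost the call and 221 gained it. Those that kept it include results called in neither fit, whose direction was not compared. Among comparisons with a call in either fit, 0 reversed direction. In the simulated data, with 3 libraries a group, 2-fold changes were only partly recovered.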
